A study of Mus musculus with 6 samples.

Results

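Apelin and adrenomedullin are peptide hormones that blood vessels both make and respond to, and the genes described here encode both ligands and their receptor parts: Apln, Adm, Aplnr, Calcrl, Ramp2 and Ramp3. They were taken by gene symbol and are 6 of the 32286 features counted in single cells of mouse brain microvessels. They were chosen by earlier results of these data, namely UMI counts by subcluster: Apln and Adm had been seen among the leading genes of a capillary subcluster that held most capillary cells of 1 library, so their differences between genotypes in capillary and endothelial cells are given as a description, from which nothing is read.

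The 3 Cldn5 iECKO libraries came from C57Bl6 mice that carried Cdh5-creERT2, Cldn5 fl/fl and R26 YFP/YFP. The 3 control libraries came from C57Bl6 mice with Cldn5 fl/fl and R26 YFP/YFP and without the Cre. Every mouse, controls included, received tamoxifen by gavage (100 µl at 20 mg/ml on 3 days) at about 3 months of age. Cldn5 encodes claudin-5, the strand-forming protein of blood-brain barrier tight junctions, and the Cdh5 promoter confines the tamoxifen-activated recombinase to endothelial cells. The series title calls the deletion mosaic, so iECKO libraries mix cells with and without it. Microvessels were captured on beads by PECAM1, an endothelial surface protein. Whether each library is 1 animal is not stated, so a p-value here speaks of the spread among these 6 libraries, part of which may be technical.

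Apelin, the product of Apln, is made by sprouting endothelial cells and acts on the G protein-coupled receptor APJ, the product of Aplnr, which is best known from venous and angiogenic endothelium. Adrenomedullin, the product of Adm, dilates vessels and tightens endothelial junctions. Its receptor is assembled from the calcitonin receptor-like receptor, encoded by Calcrl, and an accessory membrane protein that sets its ligand preference and trafficking, encoded by Ramp2 or Ramp3. Both ligand genes are textbook targets of the hypoxia-inducible factors.

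On GRCm38 (GENCODE annotation), Apln (ENSMUSG00000037010) lies at chrX:48025146-48034853 on the minus strand, with 3 exons. Adm (ENSMUSG00000030790) lies at chr7:110627661-110629820 on the plus strand and is overlapped by the antisense gene Gm28863. Aplnr (ENSMUSG00000044338) lies at chr2:85136225-85139923 on the plus strand. Calcrl (ENSMUSG00000059588) lies at chr2:84330626-84425411 on the minus strand. Ramp2 (ENSMUSG00000001240) lies at chr11:101246028-101259546 on the plus strand and shares part of its span with Vps25 on the same strand, so reads there could be assigned to either. Ramp3 (ENSMUSG00000041046) lies at chr11:6658521-6677475 on the plus strand, with the pseudogene Gm11978 on the opposite strand.

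The promoters of both ligands are shown because their genes were detected together in the same cells, as described further on. Each is the 250 bases before the gene's start, from RefSeq on GRCm38.p6, written along the gene's own strand. RefSeq promoter sequences were matched for 4 of the 6 genes. The promoters were searched on both strands for ACGTG and GCGTG, the core letters that hypoxia-inducible factors bind, and capitals mark a match, read as CACGC where it lies on the other strand.
Apln, chrX:48034854-48035103, minus strand: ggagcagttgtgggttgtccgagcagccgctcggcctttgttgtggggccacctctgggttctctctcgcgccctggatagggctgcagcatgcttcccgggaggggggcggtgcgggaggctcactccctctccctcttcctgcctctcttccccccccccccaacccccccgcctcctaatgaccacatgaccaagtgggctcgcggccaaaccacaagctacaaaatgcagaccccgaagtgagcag
Adm, chr7:110627407-110627656, plus strand: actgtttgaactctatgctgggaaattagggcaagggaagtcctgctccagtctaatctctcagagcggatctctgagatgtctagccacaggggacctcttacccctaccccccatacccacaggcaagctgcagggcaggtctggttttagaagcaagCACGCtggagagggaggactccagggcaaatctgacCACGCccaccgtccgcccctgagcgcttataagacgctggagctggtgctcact
The Adm window held GCGTG on the minus strand at 2 places, 90 and 54 bases before the start. Among the other promoters matched, the Ramp3 window also held GCGTG at 2 places, 219 and 65 bases before the start. The Apln and Calcrl windows held neither motif, which says only that these letters are not in these stretches. Among 32851 promoters of the same length, 16.6% held ACGTG, 28.2% held GCGTG and 38.6% held either, so a match is common.

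The iECKO libraries held 2714 to 7420 barcodes and 15727366 to 49350802 UMIs (unique molecular identifiers, each a counted transcript), and the control libraries 4049 to 6684 barcodes and 29721428 to 31638780 UMIs. Of these, 1879 to 4665 cells per iECKO library and 3114 to 4830 per control library were endothelial, with median depths of 4204 to 5743 and 3659 to 4826 UMIs. All 12 endothelial markers were detected in the endothelial clusters, and 96 of the 30586 barcodes occurred in 2 libraries. The library iECKO 1 stood apart: 674 of its cells lay in unnamed clusters made mostly of that library, and 1 capillary subcluster was almost only its own. Results that rest on it are therefore also given without it. The YFP feature had 0 UMIs, so recombined cells could not be marked by it. Endothelial Cldn5 stood at 2689, 2195 and 3113 CPM (a gene's UMIs for every 1000000 UMIs of the summed cells) in iECKO 1, 2 and 3, against 4558, 3996 and 5371 CPM in control 1, 2 and 3; the log2 difference was -0.80 ± 0.20 (SE), with an adjusted p of 0.263 by edgeR's quasi-likelihood test and of 0.00773 once replicate numbers were paired. Which part of Cldn5 is floxed is not stated, so counts of its transcript are no direct check of the deletion.

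The genes were first placed along the vessel tree. Endothelial subclusters were named arterial, venous or fenestrated-type from fixed marker genes, and all other subclusters are called capillary cells by default. None of the 6 genes, nor Cldn5, entered the clustering or the naming. Aplnr was highest in venous cells and Ramp3 in fenestrated-type cells, Adm was highest in capillary cells, and Calcrl and Ramp2 were present throughout the endothelium. Apln was highest in capillary cells of iECKO libraries, where a single subcluster, led by Angpt2 and described further on, carried that level. These levels are descriptions with no test.

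Apln stood in capillary cells at 62.2, 77.9 and 23.6 CPM in iECKO 1, 2 and 3 and at 7.96, 8.17 and 7.76 CPM in control 1, 2 and 3. In venous cells it averaged 4.24 ± 1.41 CPM in iECKO libraries and 2.48 ± 1.41 CPM in controls (SD, n = 3 each). Arterial cells held 24 Apln UMIs in all iECKO libraries together and 3 in all controls. Capillary cells were thus the highest of the zones in each iECKO library. In controls, capillary cells and fenestrated-type cells (5.02 ± 3.00 CPM, from 15 UMIs) did not differ beyond their spread. The order depended on the Angpt2-led subcluster: without it, capillary cells held 5.51 CPM in iECKO libraries, close to venous cells, and 1.603 CPM in controls, under venous and fenestrated-type cells.

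Adm stood in capillary cells at 244, 72.9 and 41.0 CPM in iECKO 1, 2 and 3, against 25.1, 37.9 and 25.3 CPM in the controls. In venous cells it was at 82.4, 12.4 and 7.22 CPM in iECKO 1, 2 and 3 and at 5.60, 9.10 and 4.81 CPM in the controls. Arterial cells averaged 11.7 ± 7.87 CPM in iECKO libraries and 5.26 ± 0.67 CPM in controls (SD, n = 3 each). Within each library the capillary value was the highest of the 4 zones, and the order of the others did not hold beyond their spread.

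Aplnr, the apelin receptor, was higher in venous cells than in capillary cells taken as a whole. The Angpt2-led subcluster, counted as capillary, averaged 33.6 CPM in iECKO libraries and 51.8 CPM in controls. The venous averages were 47.7 and 63.1 CPM. Venous cells held 33.5, 44.3 and 65.4 CPM in iECKO 1, 2 and 3 and 51.8, 53.0 and 84.5 CPM in control 1, 2 and 3. Capillary cells held 5.31, 16.4 and 16.7 CPM in iECKO 1, 2 and 3, against 6.34, 3.62 and 11.1 CPM in the controls. Arterial cells were near the detection limit, with 6 Aplnr UMIs in all iECKO libraries together and 5 in all controls. The venous value exceeded the capillary value by 1.82 ± 0.48 in iECKO libraries and 2.90 ± 0.34 in controls, as differences of log2(CPM + 2) within a library (SD, n = 3 each). Fenestrated-type cells, at 13.6 ± 4.33 CPM in iECKO libraries and 17.9 ± 13.4 CPM in controls, did not differ from capillary cells beyond this spread. The single venous subcluster, which held 5.04% to 11.1% of the endothelial cells of iECKO libraries and 4.40% to 7.80% of those of controls, carried 36.6% to 52.7% of their Aplnr UMIs in iECKO libraries and 57.1% to 74.2% in controls.

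Calcrl was broadly expressed and highest in fenestrated-type cells, at 373 ± 83.4 CPM in iECKO libraries and 360 ± 44.4 CPM in controls. Venous cells followed, at 210 ± 36.9 and 211 ± 36.3 CPM. Capillary cells (129.9 ± 9.42 CPM in iECKO libraries, 136 ± 0.72 CPM in controls) and arterial cells (117 ± 14.2 and 129 ± 19.6 CPM) came last and did not differ from each other beyond their spread (SD, n = 3 each throughout).

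Ramp2, the accessory protein gene required for vessel integrity in mice, had group means of 741 to 1480 CPM over the zones. At a fixed depth of 2000 UMIs per cell, 77.8% ± 6.17 of iECKO and 79.5% ± 8.40 of control endothelial cells held a Ramp2 UMI. The venous value was 1188 ± 323 CPM in iECKO libraries and 1480 ± 519 CPM in controls, and the arterial one 868 ± 164 and 741 ± 222 CPM (SD, n = 3 each). Its levels also differed between replicate numbers: capillary cells of replicate 2 held 737 CPM in both genotypes, and those of replicates 1 and 3 held 1128 and 1183 CPM in iECKO libraries, against 1468 and 1104 CPM in controls.

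Ramp3, the alternative accessory protein gene, was far higher in fenestrated-type cells than elsewhere, at 517, 302 and 457 CPM in iECKO 1, 2 and 3 and 502, 344 and 471 CPM in control 1, 2 and 3. Their groups overlapped. This zone made up 2.27% to 2.98% of the endothelial cells of iECKO libraries and 2.57% to 5.45% of those of controls, and held 49.9% to 56.9% of the Ramp3 UMIs of control endothelium. In iECKO libraries its part of the Ramp3 UMIs was 12.8%, 19.8% and 29.9%. The fenestrated-type value exceeded the capillary one by 2.98 ± 0.85 in iECKO libraries and 4.31 ± 0.04 in controls, on the log2(CPM + 2) scale (SD, n = 3 each). Venous cells held 12.9 ± 6.096 CPM in iECKO libraries and 10.4 ± 0.42 CPM in controls. They were the lowest zone in each iECKO library, while in controls arterial cells (9.40 ± 2.81 CPM) did not differ from them beyond the spread.

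**Figure D1:**
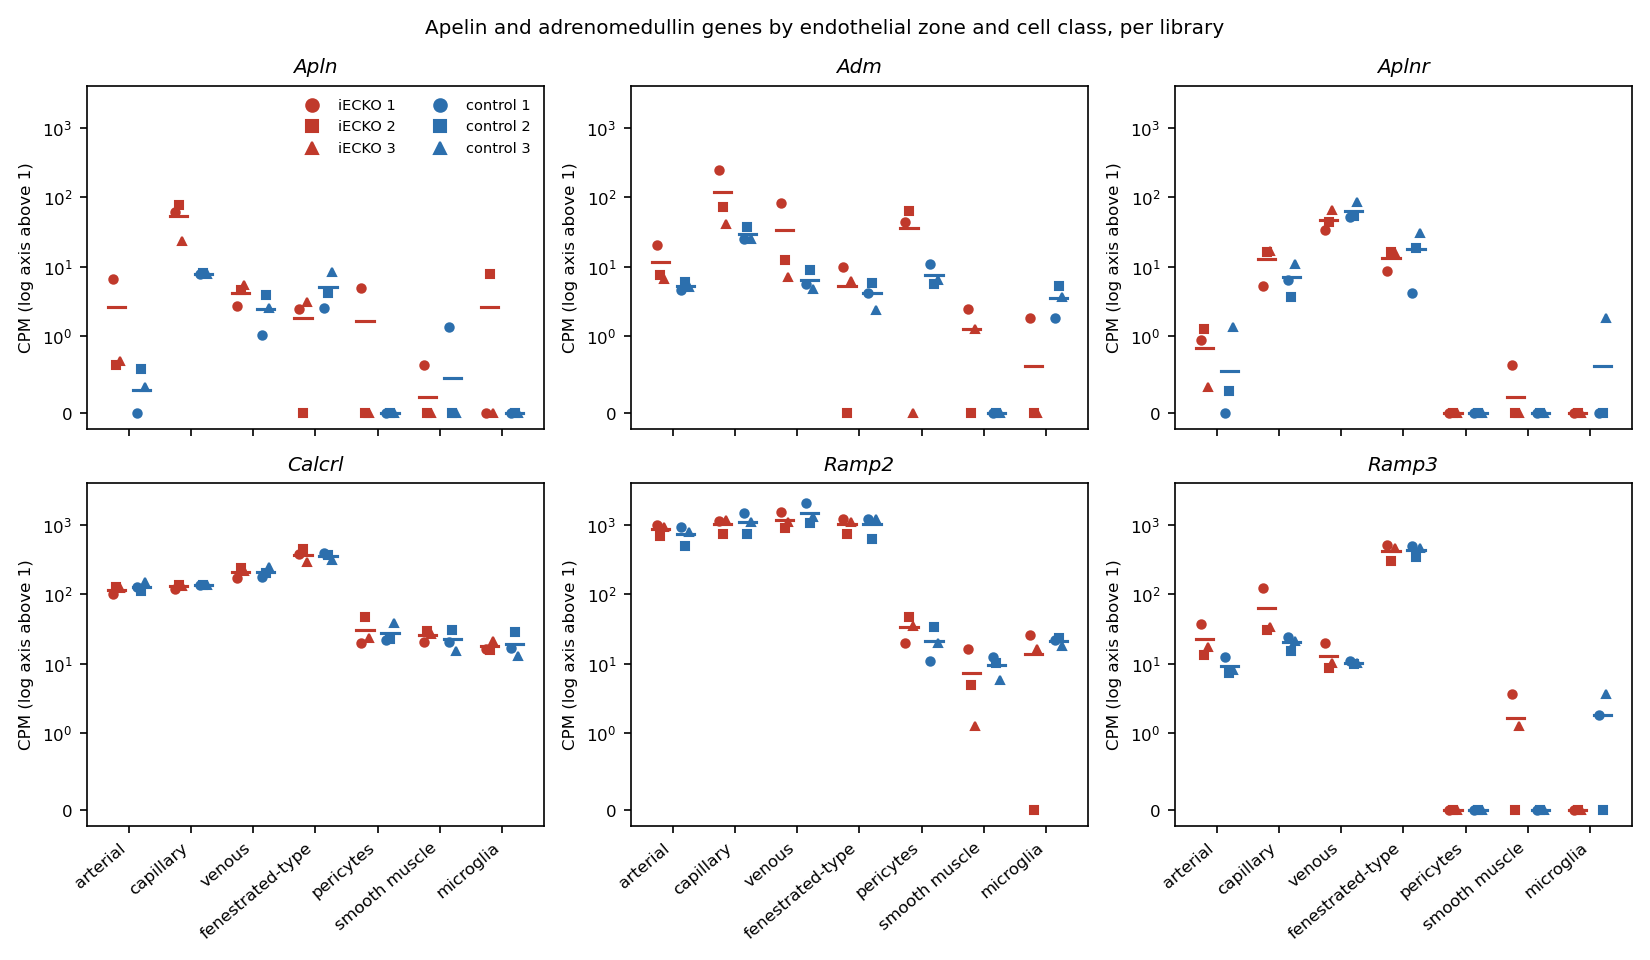
Level of each gene in CPM (vertical axis, linear below 1 and logarithmic above) in 4 endothelial zones and 3 other cell classes; each point is a library, each bar a group mean, iECKO in red left of control in blue. Adm peaks in capillary cells, Apln does so in iECKO libraries, with most of its capillary UMIs in the Angpt2-led subcluster, Aplnr peaks in venous cells and Ramp3 in fenestrated-type cells, where its group means are 426 CPM in iECKO and 439 CPM in control libraries.

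Outside the endothelium the genes were scarce. Free RNA in the droplets sets a background there, and 12 endothelial markers had a median level in pericytes of 2.77% of their endothelial level, 1.91% in microglia and 1.08% in smooth muscle cells. Barcodes of these classes with at least 50% of those markers had been dropped as mixed, which capped this gauge. Of the 864 barcodes of the pericyte cluster, 50 to 81 per iECKO and 37 to 77 per control library stayed after this and the doublet filter. Levels set beside the gauge are therefore given as values only. Aplnr and Ramp3 had 0 UMIs in pericytes. Ramp2 stood in pericytes at a median of 2.42% of its endothelial level, close to that background. Calcrl stood above that marker median, at medians of 15.5% in pericytes, 11.7% in microglia and 17.0% in smooth muscle cells, from 17, 20 and 60 UMIs in iECKO libraries and 12, 27 and 43 UMIs in controls. The highest single marker stood at 42.8% to 75.1% in pericytes and 16.5% to 27.7% in smooth muscle cells, above Calcrl in each library. In microglia the highest marker stood at 4.78% to 9.8%, under Calcrl in each library.

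Of the ligands, Apln had 1 UMI in pericytes, the contractile cells that wrap capillaries, in iECKO 1. For Adm, pericytes held 44.1, 63.5 and 0 CPM in iECKO 1, 2 and 3 and 10.9, 5.63 and 6.53 CPM in control 1, 2 and 3, from 21 and 3 UMIs in all. The groups overlapped because iECKO 3 had none. Its level there ranged from 0% to 119% of the endothelial level over the 6 libraries. None of the 6 genes had enough counts in pericytes to enter the test between genotypes, in which 1 of 3181 genes passed (0.0314%).

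A single capillary subcluster had the highest level of both ligands and held most Apln UMIs. The genes were chosen from counts of this kind, so the values are a description with no test. Its leading genes included Angpt2, Fscn1, Tubb6, Kit, Kcne3, Odc1, Adamts9, Prnd and Ppm1j; Angpt2 encodes an antagonist of the TIE2 receptor that is made at sites of vessel remodelling. It is called capillary only by default, since capillary markers were lower in it than in the mean of all subclusters (mean log2 ratio of -0.40). Because the genes that define it also differ between the genotypes, its cell numbers are given only as the denominator for the UMIs and not as a comparison. It held 27.9%, 14.95% and 6.48% of the endothelial cells of iECKO 1, 2 and 3 (1300, 281 and 194 cells) and 0.903%, 0.745% and 0.771% of those of control 1, 2 and 3 (40, 36 and 24 cells). These few cells carried 91.4%, 91.8% and 83.4% of the endothelial Apln UMIs of iECKO 1, 2 and 3 and 73.4%, 72.9% and 67.2% of those of the controls.

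Adm was less confined to it, and most Adm UMIs of iECKO 3 and of every control lay outside it. The subcluster carried 59.6%, 54.2% and 37.2% of the Adm UMIs of iECKO 1, 2 and 3 and 12.6%, 11.6% and 11.4% of those of the controls. Aplnr had 24.4%, 39.7% and 17.6% of its UMIs there in iECKO libraries, against 4.63%, 3.19% and 2.62% in controls. Calcrl and Ramp2 followed the number of cells more closely: Calcrl had 21.3%, 13.3% and 6.04% of its UMIs there in iECKO libraries and 0.662% to 1.17% in controls, and Ramp2 had 16.9%, 14.1% and 6.67% in iECKO libraries and 0.588% to 0.925% in controls. Ramp3 had 48.0%, 32.3% and 9.21% of its UMIs there in iECKO 1, 2 and 3, against 0.470% to 1.77% in controls.

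**Figure D2:**
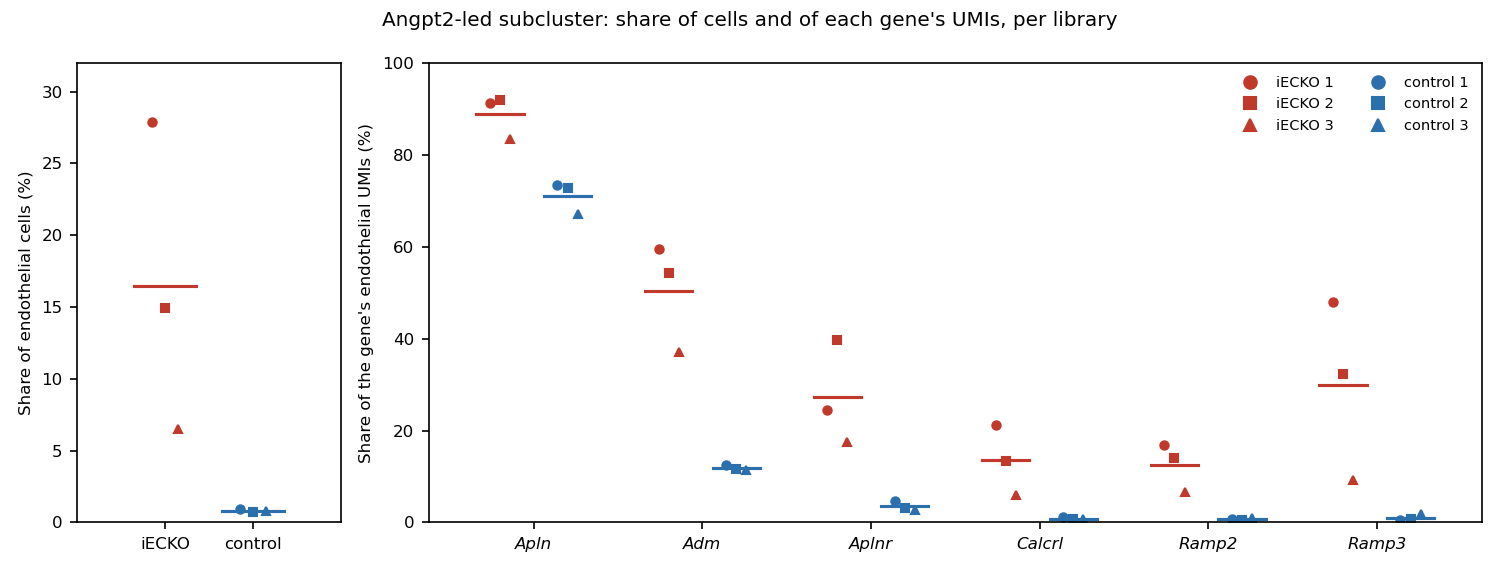
Left, percent of endothelial cells in the Angpt2-led subcluster; right, percent of each gene's endothelial UMIs found in it; points are libraries, bars group means, iECKO in red left of control in blue. Apln sits at 83.4% to 91.8% in iECKO and 67.2% to 73.4% in control libraries, from 6.48% to 27.9% and 0.745% to 0.903% of the cells.

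Within the subcluster the level of Apln was lower in iECKO cells. It stood at 163, 289 and 211 CPM in iECKO 1, 2 and 3 (1251, 619 and 372 UMIs), against 432, 472 and 412 CPM in control 1, 2 and 3 (102, 113 and 92 UMIs). The 3 iECKO values all lay under the 3 control values. Capillary cells outside the subcluster showed the opposite order, with 6.098, 7.05 and 3.37 CPM in iECKO libraries and 1.88, 1.14 and 1.79 CPM in controls. The control values inside the subcluster rest on 24 to 40 cells per library. Expression was centred per library before subclustering, so libraries with unlike parts of such cells may not have been divided at the same level. The part of this in both orders was not tested, and the values are a description.

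Adm stood inside the subcluster at 438, 166 and 166 CPM in iECKO 1, 2 and 3 and at 242, 326 and 215 CPM in the controls, and these groups overlapped. Aplnr had 8.31, 43.0 and 49.4 CPM there in iECKO 1, 2 and 3, against 50.9, 41.7 and 62.7 CPM in the controls, with iECKO 1 the only library under 40. Ramp3 had 206, 55.6 and 51.7 CPM there in iECKO libraries and 21.2, 25.04 and 62.7 CPM in controls, where they rest on 5, 6 and 14 UMIs. The groups overlapped, and iECKO 1 was the highest. Outside the subcluster, Adm had 136, 41.5 and 27.5 CPM in iECKO capillary cells and 22.0, 33.5 and 22.4 CPM in control ones.

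**Figure D3:**
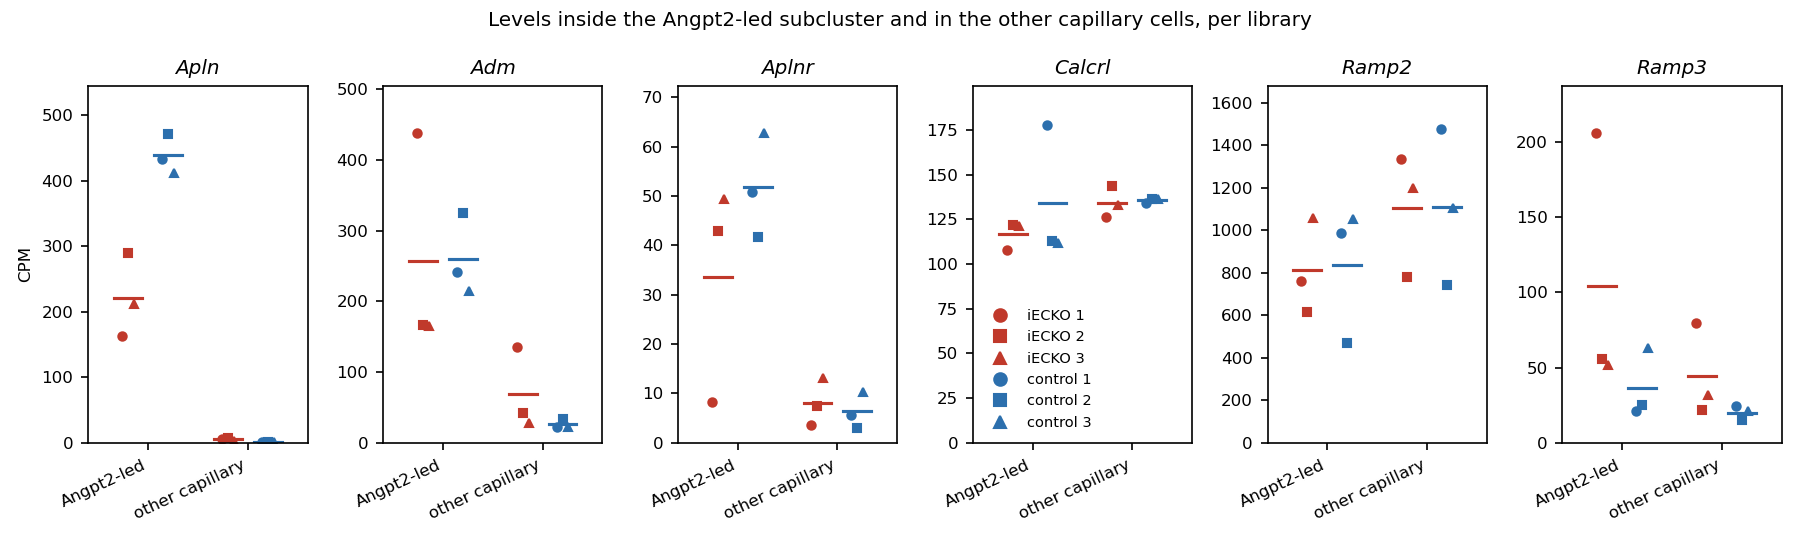
Level of each gene in CPM (linear axes, one scale per gene) in the Angpt2-led subcluster and in the other capillary cells; points are libraries, bars group means, iECKO in red left of control in blue. Inside the subcluster Apln averages 221 CPM in iECKO and 439 CPM in control libraries, and outside it 5.51 and 1.603 CPM.

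Ligand transcripts also met in the same cells. At 2000 UMIs per cell, Adm was detected in 64.2%, 44.6% and 34.2% of the capillary cells with an Apln UMI in iECKO 1, 2 and 3, which were 176, 65 and 41 cells. Among capillary cells without an Apln UMI it was detected in 23.2%, 8.21% and 5.97%. In controls, 27.8%, 42.9% and 33.3% of the 18, 14 and 12 cells with Apln had Adm, against 4.21%, 5.49% and 4.17% of cells without. Adm was thus found more often beside Apln in 6 of 6 libraries when all capillary cells were taken. Within the Angpt2-led subcluster of iECKO libraries the shares were 55.1% ± 10.4 beside Apln and 24.6% ± 12.5 without (SD, n = 3). Outside it, 9 of 20, 1 of 11 and 0 of 11 cells with Apln also had Adm in iECKO 1, 2 and 3, against 15.6%, 6.48% and 4.96% of cells without Apln. In controls these were 1 of 8, 1 of 4 and 0 of 5 cells, against 4.05%, 5.495% and 4.07%. There the share beside Apln was the higher one in 4 of 6 libraries and was 0 in iECKO 3 and control 3. Both kinds of cell had been thinned to the same depth, and no test was made across cells.

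The shares of all endothelial cells with a ligand UMI at this depth were 4.41%, 4.06% and 1.502% for Apln in iECKO 1, 2 and 3 and 0.492%, 0.467% and 0.621% in control 1, 2 and 3. For example, the exact 95% binomial interval was 3.802% to 5.09% in iECKO 1, and such intervals cover counting error only. The shares were 21.9%, 7.88% and 5.35% for Adm in iECKO libraries and 3.63%, 4.595% and 3.31% in controls. Every iECKO library lay above every control for both ligands, by 2.80 and 7.88 percentage points on average, with a two-sided exact permutation p of 0.1 for each, the smallest that 3 libraries against 3 can give. Both ligands were chosen from counts of these data, so nothing is read from this separation or its p. Leaving out iECKO 1 took the Adm difference to 2.77 points. Ramp3 was detected in 17.2%, 4.79% and 6.39% of iECKO cells and 5.91%, 4.57% and 4.76% of control cells (difference of 4.38 points, exact permutation p = 0.2), and without iECKO 1 the difference was 0.51 points. Aplnr was detected in 2.32% ± 1.22 of iECKO cells and 1.73% ± 0.48 of control cells (exact permutation p = 0.5, n = 3 each). Without thinning, Apln was detected in 5.78% and 1.14% of iECKO and control endothelial cells, and Adm in 21.2% and 8.34%. In microglia, 0 of 26 to 134 cells per iECKO library and 0 of 74 to 139 cells per control library had an Apln UMI at that depth. As 3 counts of the total, this allows shares of cells with a UMI at 2000 UMIs of up to 2.24% to 11.5% in iECKO and 2.16% to 4.05% in control libraries; before thinning, microglia of iECKO 2 held 1 Apln UMI.

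Sums of counts per library were then compared between genotypes with edgeR's quasi-likelihood test, fitted over all genes and adjusted by Benjamini-Hochberg over all of them, at an adjusted p under 0.05. In endothelial cells 1 of 13247 genes passed (0.00755%) and none of the 6 did. All 6 passed the filter on low counts. The log2 difference of Apln was 2.76 ± 0.45 (SE, adjusted p = 0.158) and that of Adm 2.14 ± 0.77 (adjusted p = 0.604); both had been seen to differ before, and the values are a description. DESeq2, the alternative count test, called Apln (adjusted p = 2.0e-10), as did the quasi-likelihood test without iECKO 3 (log2 difference of 3.14, adjusted p = 0.00073). Both calls rest on counts of the kind by which Apln was chosen, so nothing is read from them. Apln was higher in 3 of 3 iECKO libraries than in any control, at 46.3, 54.9 and 18.2 CPM against 5.91, 6.17 and 5.94 CPM. Pairing the libraries by replicate number, as a block in the fit, made 1.56% of all genes pass and still none of the 6.

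None of the receptor genes passed in the endothelium as a whole. Aplnr stood at 16.0 ± 6.20 CPM in iECKO libraries and 15.6 ± 6.63 CPM in controls, with a 95% interval of the log2 difference from -0.56 to 0.65. Calcrl stood at 145 ± 13.9 CPM in iECKO libraries and 158 ± 5.78 CPM in controls (interval from -0.40 to 0.17). Ramp2 stood at 1024 ± 231 CPM in iECKO libraries and 1108 ± 354 CPM in controls (interval from -0.64 to 0.41). For Ramp3 the values were 112, 30.04 and 40.4 CPM in iECKO libraries and 45.2, 28.9 and 34.2 CPM in controls, and the log2 difference of 0.78 ± 0.54 became -0.11 without iECKO 1. A difference that did not pass does not show equal levels, and the intervals leave room for changes of the sizes given.

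In capillary cells 24 of 12444 genes passed (0.193%), and none of the 6 did, nor did they with the block, where 4.34% of all genes passed. Apln differed by 2.82 ± 0.51 (adjusted p = 0.143), Adm by 2.06 ± 0.80 (adjusted p = 0.543), Ramp3 by 1.69 ± 0.67 (adjusted p = 0.539) and Aplnr by 0.88 ± 0.46 (adjusted p = 0.657) on the log2 scale. DESeq2 called Apln (adjusted p = 7.4e-11), as did the main test without iECKO 3 (3.202, adjusted p = 0.00025). Apln was chosen from capillary counts of these data, so nothing is read from these calls either. The capillary Ramp3 levels were 125, 30.3 and 33.9 CPM in iECKO 1, 2 and 3, against 24.3, 15.2 and 21.5 CPM in the controls, so that each iECKO library lay above each control. With 1 library left out at a time, the capillary log2 difference ranged from 0.60 to 2.04 for Ramp3 and from 0.90 to 2.51 for Adm. In capillary cells outside the Angpt2-led subcluster, a comparison added after the data were seen, Apln differed by 1.75 ± 0.37 (adjusted p = 0.306), Adm by 1.4 ± 0.74, Ramp3 by 1.16 ± 0.52 and Aplnr by 0.34 ± 0.46, and none of the 6 passed. Ramp3 stood there at 79.4, 21.8 and 32.02 CPM in iECKO 1, 2 and 3 and at 24.3, 15.01 and 20.9 CPM in the controls, so these groups overlapped.

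In arterial cells Ramp3 was higher in iECKO libraries once replicate numbers were paired. Its level was 37.5, 13.3 and 17.2 CPM in iECKO 1, 2 and 3 and 12.6, 7.43 and 8.16 CPM in control 1, 2 and 3. Every iECKO value lay above every control value. The log2 difference of 1.31 ± 0.41 did not pass without pairing (adjusted p = 0.765; 3 of 10502 genes passed, 0.0286%). With the replicate block it was 1.21 ± 0.22 and passed (adjusted p = 0.0139), where 1.06% of all genes passed. The unpaired difference ranged from 0.65 to 1.57 with 1 library left out at a time. The paired fit, which alone of these 2 gave the call, was not repeated with a library left out. Apln and Aplnr were under the count filter in arterial cells, and Adm (1.17 ± 0.46), Calcrl (-0.16 ± 0.16) and Ramp2 (0.21 ± 0.24) did not pass in either fit. In venous cells 0 of 10588 genes passed (0%) with edgeR, 553 had an unadjusted p under 0.05 and 21 passed with DESeq2, none of them among the 6; with the block 0.35% of all genes passed, again without the 6. Venous Aplnr had a log2 difference of -0.43 ± 0.22 and venous Adm one of 2.46 ± 1.13. That of venous Adm ranged from 0.46 to 2.95 with 1 library left out at a time.

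**Figure D4:**
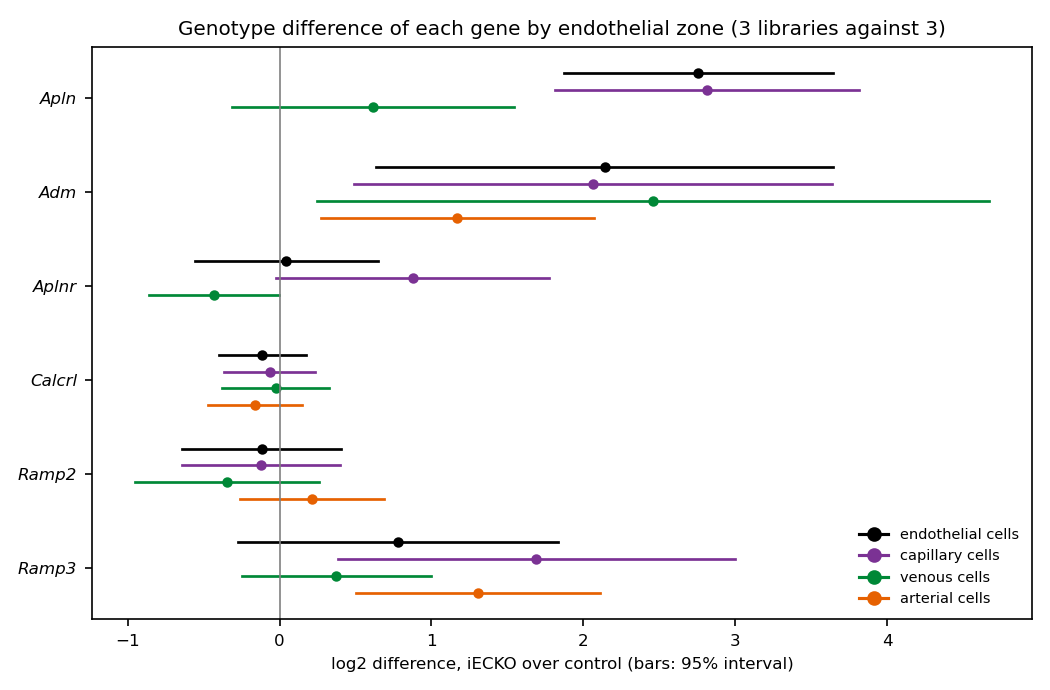
Log2 difference of each gene between 3 iECKO and 3 control libraries (iECKO over control) in all endothelial, capillary, venous and arterial cells, with 95% intervals as bars; genes under the count filter in a zone have no point. The intervals are not adjusted over genes. The ligand intervals in endothelial and capillary cells lie above 0 (Apln 2.76 and 2.82), but both ligands were chosen from these counts and neither passed the adjusted edgeR test. Those of Calcrl and Ramp2 span 0.

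Several cell-type signatures moved with the genotype in the endothelial sums, and their part in these differences was not tested. The summed level of 9 pericyte markers (9 of 9 detected) was 55.4 to 83.0 CPM in iECKO and 34.9 to 47.6 CPM in control libraries. That of 8 astrocyte markers was 104 to 181 CPM in iECKO and 71.8 to 84.4 CPM in control libraries, with only Aldh1l1 at 0, in iECKO 2 and control 1. The 10 capillary markers summed to 4331 to 7398 CPM in iECKO and 7466 to 9117 CPM in control libraries, and the 6 fenestrated markers to 381 to 590 and 721 to 813 CPM. Gm42418, a transcript that collects ribosomal RNA reads, took 2.94% to 15.9% of iECKO and 2.72% to 18.6% of control counts and did not follow the genotype.

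Whether the genotype difference itself changed along the vessel was tested by a zone-by-genotype term with the library as a block. Between venous and capillary cells 166 of 11660 genes passed (1.42%), and Ramp3 was the one gene of the 6 among them. Its genotype difference was 1.36 lower in venous than in capillary cells on the log2 scale (-1.36 ± 0.25 SE, adjusted p = 0.00389, edgeR's quasi-likelihood test). Venous Ramp3 stood at 19.9, 8.76 and 10.1 CPM in iECKO 1, 2 and 3 and at 10.9, 10.0 and 10.4 CPM in the controls, groups that overlap, beside the capillary values given above that do not. The venous minus capillary difference of log2(CPM + 2) was -1.90 ± 0.55 in iECKO libraries and -0.83 ± 0.27 in controls (SD, n = 3 each). The call was lost without iECKO 1 (-0.84, adjusted p = 0.149) and without control 2 (-1.22, adjusted p = 0.0725). The capillary class mixes subclusters that hold different parts of its cells in the genotypes. Without the Angpt2-led subcluster, where capillary Ramp3 groups overlapped, the value was -0.88 ± 0.21 (adjusted p = 0.0491), and 55 of 11645 genes passed, a comparison added after the data were seen.

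Aplnr missed the threshold in the same test (-1.21 ± 0.28, adjusted p = 0.0579). Without iECKO 1 it passed (-1.46, adjusted p = 0.0035), as it did without the filter on low counts (adjusted p = 9.1e-10). Its venous and capillary levels above show the values behind this, with a smaller venous excess in iECKO than in control libraries. Without the Angpt2-led subcluster, capillary Aplnr averaged 8.105 CPM in iECKO and 6.36 CPM in control libraries, and the value was -0.75 ± 0.26 (adjusted p = 0.259). Apln had a value of -2.14 ± 0.82 (adjusted p = 0.308), which passed without iECKO 3 (-2.79, adjusted p = 0.0112) and without the filter (adjusted p = 5.4e-06). Its capillary side holds counts by which Apln was chosen, so nothing is read from these calls. For Adm, Calcrl and Ramp2 the values were 0.31 ± 0.29, 0.03 ± 0.11 and -0.23 ± 0.11. Between arterial and capillary cells 33 of 11660 genes passed (0.283%), none of them among the 6.

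Because the deletion is mosaic, cells of the same iECKO library were next compared by whether Cldn5 was detected. Cldn5-undetected cells held 0 Cldn5 UMIs and Cldn5-detected cells at least 2, among cells with at least 2000 UMIs. There were 549, 146 and 299 undetected capillary cells in iECKO 1, 2 and 3 and 2584, 1000 and 1899 detected ones. Undetected cells were shallower, with median depths of 3278, 4000 and 4485 UMIs against 4960, 5772 and 6187 UMIs, and the part of this in the differences was not tested. The control libraries had 13, 19 and 2 undetected capillary cells, too few to give a background by the minimum of 20 cells.

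Ramp2 was lower in the Cldn5-undetected cells. It stood at 867, 633 and 1143 CPM in undetected capillary cells of iECKO 1, 2 and 3 and at 1176, 752 and 1201 CPM in detected cells of the same libraries. The value was lower in undetected cells in 3 of 3 libraries. The log2 difference was -0.24 ± 0.06 (SE) and passed edgeR's quasi-likelihood test with the library as a block (adjusted p = 0.0054), where 476 of 11156 genes passed (4.27%), 2.25% of all genes higher and 2.02% lower. The call was lost without iECKO 1 (-0.12, adjusted p = 0.562) and without iECKO 2 (-0.26, adjusted p = 0.11). With 1 of the 6 genes past the threshold, beside 4.27% of all genes, nothing is read about the 6 as a set.

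Neither ligand passed in this contrast. Apln stood at 65.9, 44.9 and 3.43 CPM in undetected cells (140, 29 and 5 UMIs), against 64.5, 87.1 and 25.3 CPM in detected cells (1127, 628 and 403 UMIs). The log2 difference was -0.48 ± 0.42 (adjusted p = 0.756, 95% interval from -1.29 to 0.34). It was close to 0 in iECKO 1 alone, and without that library it was -1.44 and passed (adjusted p = 1.4e-07). The Angpt2-led subcluster held 37.0%, 18.5% and 7.02% of the undetected capillary cells and 35.8%, 22.9% and 8.53% of the detected ones. Seen from the other side, 82.4%, 90.8% and 90.2% of capillary cells with an Apln UMI held a Cldn5 UMI at 2000 UMIs per cell in iECKO 1, 2 and 3, against 78.6%, 79.7% and 82.8% of those without Apln.

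Adm stood at 219, 38.7 and 41.8 CPM in undetected cells and 255, 79.1 and 40.4 CPM in detected cells, with a log2 difference of -0.25 ± 0.09 (adjusted p = 0.103) that passed without iECKO 3 (adjusted p = 0.0323). Aplnr (-0.64 ± 0.27, adjusted p = 0.21) and Calcrl (-0.20 ± 0.09, adjusted p = 0.228) had negative values and did not pass. Calcrl passed under a stricter gate, 0 or 1 against at least 5 Cldn5 UMIs in cells with at least 4000 UMIs (-0.29, adjusted p = 0.0368). For Ramp3 the log2 difference was 0.29 ± 0.10 (adjusted p = 0.109), from 168, 20.1 and 35.6 CPM in undetected cells and 122, 32.2 and 34.1 CPM in detected cells. It passed without iECKO 2 (0.36, adjusted p = 0.0368) and was -0.12 without iECKO 1. In arterial cells 55 of 8637 genes passed the same contrast (0.637%), and none of Calcrl, Ramp2 and Ramp3, the 3 of the 6 genes with enough counts there.

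**Figure D5:**
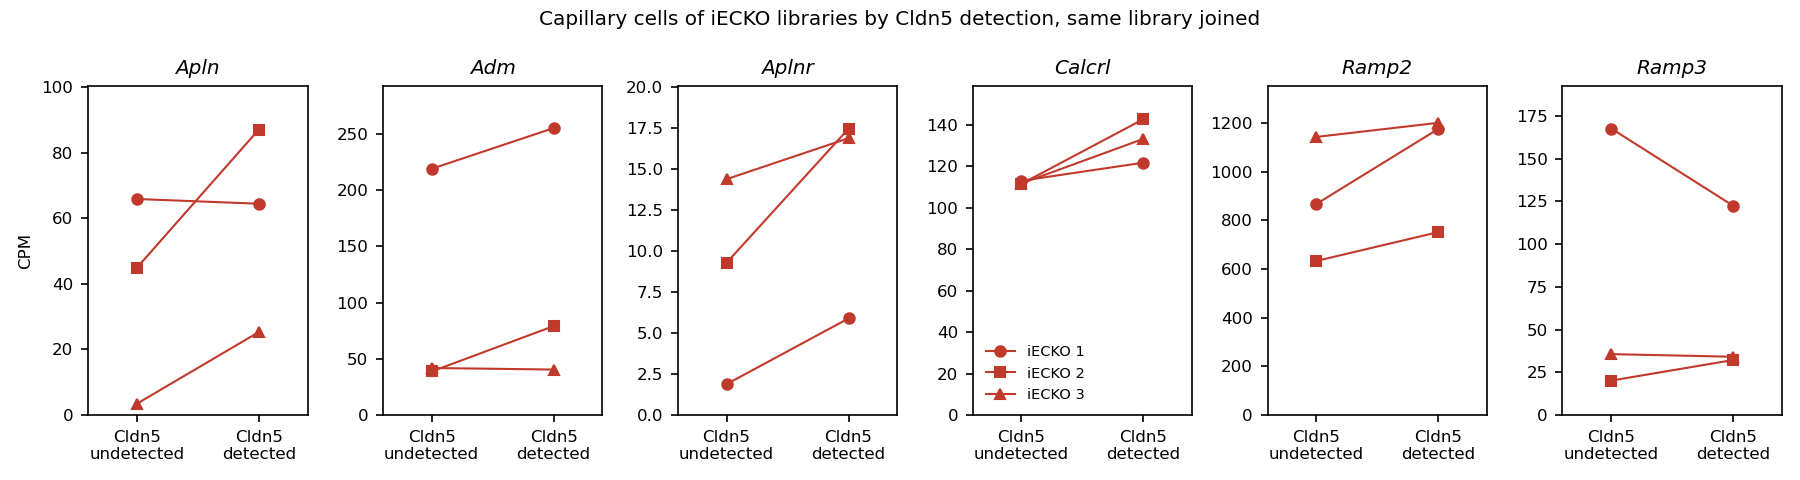
Level of each gene in CPM (linear axes from 0, one scale per gene) in Cldn5-undetected and Cldn5-detected capillary cells of the 3 iECKO libraries, with a line joining both values of a library. Ramp2 is lower in undetected cells in all 3 libraries (867, 633 and 1143 CPM, against 1176, 752 and 1201 CPM), while Apln lies lower in 2 of them.

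The wider pathway was read from a list of 35 genes for related ligands, processing enzymes, G proteins, cyclic AMP signalling and endothelial targets. In endothelial cells 28 of them were tested and none passed without pairing, with a median log2 difference of 0.10 beside 0.003 for all genes. Among those under the count filter were the related ligand genes Apela, Adm2, Calca and Calcb and the receptor parts Calcr and Ramp1. With the replicate block 1 of 30 rose and none fell, beside 1.12% of all genes that rose: Gnai2, which encodes an inhibitory G protein subunit through which APJ signals, stood at 1536 ± 273 CPM in iECKO and 1128 ± 266 CPM in control libraries (0.46 ± 0.09, adjusted p = 0.0466). In capillary cells with the block, 3 of 28 rose, beside 3.12% of all genes: Prcp, whose peptidase trims apelin (94.5 ± 13.8 CPM in iECKO and 51.3 ± 12.5 CPM in control libraries), Gnai2, and Rapgef3, which encodes the cyclic AMP sensor EPAC1. Between Cldn5-undetected and Cldn5-detected capillary cells 3 of 26 fell and none rose, beside 2.02% of all genes that fell. Those that fell included Ackr3, which encodes a decoy receptor that also takes up adrenomedullin (-0.59 ± 0.11), and Prcp (-0.42 ± 0.10).

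Genes of the hypoxia response and of tip cells, the leading cells of a vessel sprout, were listed because both ligands belong to these programmes. Of 15 tested hypoxia genes none passed in endothelial cells, with or without the block, and their median log2 difference was 0.15. In capillary cells none passed without the block and 2 of 15 rose with it, beside 3.12% of all genes: Pgk1 (0.53 ± 0.11), which encodes a glycolytic enzyme, and Pfkfb3 (0.75 ± 0.16), which encodes an activator of glycolysis. Of 20 tip-cell genes none passed without the block, and 17 had a positive difference. With the block 6 of the 20 rose, beside 1.12% of all genes. They were Kcne3, a potassium channel subunit gene (10.7 ± 10.8 CPM in iECKO and 0.83 ± 0.41 CPM in control libraries, 3.46 ± 0.36), Angpt2 (70.5 ± 39.7 and 11.9 ± 4.78 CPM, 2.45 ± 0.25), the basement membrane genes Nid1 (1.00 ± 0.12) and Lamc1 (0.84 ± 0.13), the semaphorin receptor gene Plxnd1 (0.71 ± 0.10) and Cd34 (0.50 ± 0.09). Kcne3, Angpt2 and also Kit and Odc1 of this list lead the subcluster that holds most Apln, so their counts are not independent of it. In capillary cells Nid1 rose without the block (1 of 19, beside 0.193% of all genes). With it 7 of 20 tip-cell genes rose, beside 3.12% of all genes, and 1 fell, beside 1.22%: Esm1, at 0.32 ± 0.24 CPM in iECKO and 1.66 ± 1.87 CPM in control libraries (-2.15 ± 0.50), a gene that also leads the fenestrated-type subcluster. Between Cldn5-undetected and Cldn5-detected capillary cells, 3 of 15 hypoxia genes fell (Ldha, Ankrd37 and Ddit4), beside 2.02% of all genes, and none rose. Of 19 tip-cell genes, 5 rose there (Angpt2, Unc5b, Lamc1, Dll4 and Cd34), beside 2.25% of all genes, and Odc1 fell by 0.84 on the log2 scale.

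The genes most like each member were taken by the correlation of log2(CPM + 10) across 76 sums of subclusters by library, which share libraries and depth, among 6373 genes. They are descriptions without a test. For Apln they were Itga4 (r = 0.752), Tubb6 (0.733) and Odc1 (0.731). For Adm they were Ankrd37 (0.863), Odc1 (0.835) and Ctla2a (0.807). Odc1, which encodes the first enzyme of polyamine synthesis, was near both ligands, and Apln and Adm correlated with each other at r = 0.697. The receptor parts had other neighbours: Chst15 (0.815), Pitpnm2 (0.812) and Ncoa3 (0.797) for Calcrl, Irx3 (0.877), Jup (0.854) and Plpp1 (0.853) for Ramp3, and for Ramp2 the mitochondrial genes Ndufs8 (0.883), Higd2a (0.877) and Ndufb11 (0.874). Aplnr was under the mean of 20 CPM that the rule asks for. Calcrl correlated with Ramp3 at r = 0.389 and with Ramp2 at -0.06, and Apln with Aplnr at 0.499. Ankrd37, the nearest to Adm, is a gene of the hypoxia list.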

How the data were processed

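The authors deposited UMI counts per gene and cell barcode for 6 libraries, which Cell Ranger 6.1.1 produced, per the file headers, from 10x Genomics chemistry 3.1, mapped to mm10 per the submitters' processing notes; no normalization had been applied. Of 32286 features, 32158 were found in the annotation of GRCm38. Barcodes with at least 1000 UMIs, 500 genes and at most 15% mitochondrial counts were kept. Because Scrublet's own threshold called almost none, the top 0.8% of doublet scores for each 1000 barcodes in a library were dropped. Clustering used scanpy 1.11.5 (2000 variable genes, 40 components, 20 neighbours, Leiden resolution 1.0, leidenalg 0.10.2; Python 3.11.15), and endothelial cells again (30 components, centred per library). Clusters were named from markers, 3 of which had to be detected in 25% of cells. Barcodes of a named class with at least 50% of the markers of an unrelated class were dropped as mixed. Counts were summed per library and class of at least 20 cells and tested with edgeR 4.0.16 (quasi-likelihood, robust, TMM factors, filterByExpr, two-sided; R 4.3.3). SE is the log2 difference over the root of its F statistic. Intervals are 95% from a normal quantile, which can be too narrow with 3 libraries a group, and are not adjusted over genes. CPM are shares of the raw sums. DESeq2 1.42.0, RLE factors, no count filter, stricter cell filters, doublets kept, other thinning depths, another Cldn5 gate and each library left out were the alternatives, beside a replicate block. Shares were taken after thinning to 2000 UMIs, with exact Clopper-Pearson intervals that cover counting error only. The steps were tested on simulated data.

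Deviations of same-number libraries from their group means correlated (r of 0.43, 0.52 and 0.489 over 13200 genes, which are not independent). The replicate numbers were taken as pairs on this ground. Correlations of other pairs were negative, which centring on the group means brings about on balance, so they add no support. The genes and lists were chosen with earlier results of these data known. By rule the text names all 6 genes in every contrast, list genes past the threshold in endothelial cells with or without the block (at most 6 per list), and the 3 nearest patterns of genes with a mean of at least 20 CPM; list genes past the threshold in other contrasts were named after their values were seen. Some list and leading genes are not reported here.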

Additional observations from a re-analysis of the deposited data

Results flagged for a closer look

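Ramp3 had a different genotype effect in 2 zones by a test of the difference itself: the iECKO-over-control log2 difference in venous cells minus that in capillary cells was -1.364 ± 0.25 (SE, adjusted p = 0.00389, edgeR's quasi-likelihood test with the library as a block, adjusted over 11660 genes). The venous effect was 0.37 ± 0.32 and the capillary effect 1.69 ± 0.67, and neither passed alone. The venous minus capillary difference of Ramp3 was lower in each iECKO library (-2.53 to -1.57) than in any control (-1.03 to -0.52) on the log2(CPM + 2) scale. The venous zone is 1 subcluster, with 179 to 235 cells per iECKO and 195 to 325 per control library. Leaving out iECKO 1 or control 2 ended the call. The capillary side holds the Angpt2-led subcluster, which is 27.9%, 14.95% and 6.48% of the endothelial cells of iECKO 1, 2 and 3 and 0.745% to 0.903% of those of controls. Without it the capillary effect was 1.16 ± 0.52, with overlapping groups (21.8 to 79.4 CPM in iECKO and 15.01 to 24.3 CPM in control libraries), and the venous minus capillary value was -0.88 ± 0.21 (adjusted p = 0.0491).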

How the results depend on the processing

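Of 123 alternatives of the counts of calls and the cell shares, 61 stayed within 1.5 times the reported count or on the same side of the threshold, 32 gave fewer and 30 more; of 421 for single genes, 371 kept direction and side, 4 lost a call, 15 gained one and 31 changed sign. With the replicate block 212 genes passed in endothelial, 556 in capillary, 114 in arterial and 38 in venous cells and 9 in pericytes, and among the 6 genes it changed the call of arterial Ramp3 alone. With DESeq2 172 endothelial, 274 capillary, 27 arterial and 21 venous genes passed, and 188 in the capillary Cldn5 contrast. Without a filter on low counts the counts were 55 (endothelial), 139 (capillary), 109 (arterial), 50 (venous), 11 (pericytes), 225 (arterial Cldn5 contrast), 246 (arterial against capillary) and 467 (venous against capillary), and arterial Ramp3 passed (adjusted p = 0.000203). With RLE factors 0 endothelial, 13 capillary and 2 pericyte genes passed. The stricter Cldn5 gate gave 220 calls in arterial cells, and capillary cells outside the Angpt2-led subcluster, chosen after seeing the data, gave 2 between genotypes, 5 in the arterial and 55 in the venous zone test, where arterial against capillary Aplnr (0.13) and Ramp3 (0.13), which had not passed, changed sign. The cause of these changes was not tested.

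Leaving out 1 library at a time gave 0 to 123 calls in endothelial, 0 to 269 in capillary, 0 to 6 in arterial and 0 to 31 in venous cells, 0 to 6 in pericytes, 240 to 388 and 41 to 106 in the capillary and arterial Cldn5 contrasts, and 6 to 196 and 45 to 461 in the arterial and venous zone tests. Apln differed by 2.44 to 3.14 in endothelial cells in these fits and Adm by 0.94 to 2.57, on the log2 scale. Single-gene values whose sign turned without 1 library had not passed, and ranged as follows. In endothelial cells Aplnr ranged from -0.14 to 0.34, Ramp2 from -0.30 to 0.18 and Ramp3 from -0.11 to 1.09, and Aplnr was -0.012 with stricter cell filters. In capillary cells Ramp2 ranged from -0.31 to 0.19. In venous cells Calcrl ranged from -0.17 to 0.073, Ramp2 from -0.65 to 0.035 and Ramp3 from -0.20 to 0.59. In the Cldn5 contrast capillary Ramp3 ranged from -0.12 to 0.36, arterial Ramp2 from -0.065 to 0.043 and arterial Ramp3 from -0.91 to 0.27. In the arterial zone test Apln ranged from -1.41 to 1.29, Aplnr from -1.01 to 0.91, Calcrl from -0.20 to 0.034 and Ramp3 from -0.55 to 0.072. In the venous zone test Adm ranged from -0.36 to 0.46 and Calcrl from -0.054 to 0.18.

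With 3 libraries a group, exact tests cannot go below p = 0.1. Arterial and pericyte values of Apln and Aplnr rest on few UMIs, and the control Angpt2-led cells number 24 to 40 per library. After scaling, the median log2 difference of all genes tested in endothelial cells was 0.003 with TMM and -0.008 with RLE factors.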

Other observations

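Outside the Angpt2-led subcluster, the highest Adm levels with counts in all libraries were in 2 other subclusters called capillary by default, given as values with no test. In the one led by Hspa1a, Hspa1b and Car4, the first 2 being heat-shock genes, Adm averaged 152 CPM in iECKO libraries (56.3 to 339) and 46.2 CPM in controls (40.1 to 55.4). In the one led by Cyp2e1, F5 and Flrt2 it averaged 140 CPM in iECKO libraries (36.1 to 341) and 34.9 CPM in controls (28.3 to 47.1). The ranges of iECKO and control libraries overlapped in the second of these and not in the first. Relative to the mean of all subclusters, the second was raised more in venous than in capillary markers (mean log2 ratios of 0.841 and 0.303).

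In iECKO libraries, outside the fenestrated-type and Angpt2-led cells, Ramp3 was highest in a subcluster led by S100a6, Ccn3 and Cdh13, at 72.98 CPM (30.5 to 149). This subcluster is called capillary by default, although relative to the mean of all subclusters it was raised more in arterial than in capillary markers (mean log2 ratios of 0.555 and 0.061). In controls Ramp3 averaged 23.9 CPM there (21.2 to 28.6), and 24.1 CPM (16.4 to 28.3) in a subcluster led by Ndnf, Car4 and Unc13c.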
